A study of Homo sapiens with 101 samples.

Results

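The 42 genes described here encode proteins that carry a cell from G2 through mitosis: cyclins and the regulators of CDK1, mitotic kinases, spindle checkpoint and anaphase-promoting complex (APC/C) factors, centromere and kinetochore proteins, kinesins, spindle and midzone proteins, cytokinesis factors, and 3 proteins of chromatin and transcription. They were taken by gene symbol, and all 42 were found among the 19775 genes of the arrays, each read from the probe set with the highest mean over all arrays. The members have 82 probe sets in all, and 19 members have only 1. For 21 members the name of the probe set used marks possible binding to more than 1 transcript.

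Transcripts of this group are scarce in G1 and accumulate from S phase to mitosis, so their level in a culture follows how many cells are in the last part of the cycle. CDK1 with cyclin A or B drives mitotic entry, the Aurora and Polo-like kinases and the kinesins build the spindle, the checkpoint holds the APC/C until chromosomes are attached, and the APC/C with CDC20 then marks cyclin B and securin for destruction. Many of these genes are held off in quiescent cells by the DREAM complex and switched on by MuvB with MYBL2 and FOXM1. RAS and ERK signalling acts upstream, mainly on the exit from G1.

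The colorectal cancer lines SW480 and SW620 come from 1 human case, the former grown from the primary tumour and the latter from a lymph node metastasis. In each line a short hairpin RNA was directed at CDK5, HRAS, MAP2K1, MAP2K2, MAPK3 or NGFR, and the controls were cells with an empty vector, cells with a non-target hairpin and non-transduced cells. Of the 18 groups of arrays, 15 hold 6 each, the CDK5 knockdown in SW620 holds 5 and both non-transduced groups hold 3. Per the labels, the responding genes served to check a computed network of gene interactions. The 5 knockdowns other than HRAS carry 1 hairpin code each, so hairpin and gene cannot be told apart, while the HRAS groups carry different codes in replicate 1 and in replicates 3 to 6. Whether the cells were a clone or a pool of transduced cells is not given in the sources used here. Replicate numbers run from 1 to 7, and the style of the names separates 4 rounds: replicate 1, replicate 2, replicates 3 to 6, and replicate 7, with non-transduced cells alone. Names in replicates 3 to 6 end in A1, A2, B1 or B2. The labels number them as biological replicates without saying whether they came from separate cultures, so p-values measure the spread between these arrays.

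All values are log2 RMA levels, in which 1 unit is a doubling of signal, and a change is the round-adjusted log2 level of a knockdown minus that of both vector controls of its line, ± its standard error (SE). A change passed the test when its limma p, adjusted over all genes, was under 0.05. Rose, fell and changed refer only to this difference from the vector controls. Array medians lay between 5.05 and 5.28, and the 95th percentile of an array between 9.12 and 9.53 in replicates 1 and 2 but between 9.76 and 9.87 in replicates 3 to 7, so levels were compared within rounds. On 3 SW620 arrays GAPDH read from its 3 prime end exceeded that from its 5 prime end by over 2, a sign of degraded RNA: MAP2K1 knockdown replicate 2 (6.04), NGFR knockdown replicate 1 (3.82) and MAPK3 knockdown replicate 2 (2.95). The same difference for ACTB was 5.14 to 7.90 on these 3 arrays. On the other arrays of replicates 1 and 2 it was 0.28 to 1.10, and in replicates 3 to 7 it was 1.47 to 3.57, so it differed between rounds. Arrays were marked as degraded by GAPDH alone. On 3 SW480 arrays of replicate 1, those of the MAP2K1, MAP2K2 and MAPK3 knockdowns, genes that mark SW620 lay at 0.345, 0.622 and 0.389 of the way from their level in SW480 to their level in SW620. Another 9 SW480 arrays lay over 0.1 of the way: non-transduced replicate 7 (0.233), CDK5 knockdown replicate 1 (0.127), MAP2K1 knockdown replicates 3 to 5 (0.109 to 0.123) and MAPK3 knockdown replicates 3 to 6 (0.115 to 0.155). Of the epithelial markers, KRT18 averaged 13.8 in SW480 and 13.3 in SW620 and EPCAM 11.4 and 11.6, but LGALS4, a marker of differentiated colon, was below the array medians in both lines (4.27 and 4.31). Markers of other cell types did not all lie low. Of the immune markers PTPRC averaged 4.05 and 4.00, CD14 4.84 and 4.59 and CD3E 5.31 and 5.29. Of the endothelial markers CDH5 averaged 3.73 and 3.72, VWF 5.12 and 5.08 and PECAM1 6.06 and 6.34. Of the fibroblast markers COL1A1 averaged 7.27 and 7.43, DCN 5.73 and 5.90, COL1A2 4.99 and 4.96, and LUM 3.54 in SW480 and 7.94 in SW620. Their part in the results was not tested. The knocked-down gene was lower than in the vector controls in 11 of the 12 knockdowns, from 9.25% of control for NGFR in SW480 to 80.2% for MAPK3 in SW480. The exception was NGFR in SW620 (69.8%, adjusted p = 0.136).

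Promoters of 36 members are in the RefSeq table (GRCh38.p14), and 4 are shown. CDC25C passed the test in the most knockdown comparisons (7), and KIF20A, MKI67 and CDC20 were taken from the 33 members with 6 calls for their larger mean size of change over the 12 knockdown comparisons. Each is the 250 bases just before the first listed gene start, on the gene's strand, with 2 motifs in capitals wherever they occur on either strand: the cell cycle homology region TTTGAA, a site of MuvB complexes, and the CCAAT box, bound by NF-Y. On the other strand each appears as its reverse complement. CDC20 (chr1:43358731-43358980, plus strand) and KIF20A (chr5:138178862-138179111, plus strand) are followed by MKI67 (chr10:128126424-128126673, minus strand) and CDC25C (chr5:138338356-138338605, minus strand).
CDC20: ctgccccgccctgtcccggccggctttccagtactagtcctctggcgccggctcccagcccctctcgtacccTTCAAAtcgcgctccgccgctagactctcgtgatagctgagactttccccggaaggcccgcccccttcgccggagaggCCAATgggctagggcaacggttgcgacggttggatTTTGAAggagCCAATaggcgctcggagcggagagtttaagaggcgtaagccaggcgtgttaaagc
KIF20A: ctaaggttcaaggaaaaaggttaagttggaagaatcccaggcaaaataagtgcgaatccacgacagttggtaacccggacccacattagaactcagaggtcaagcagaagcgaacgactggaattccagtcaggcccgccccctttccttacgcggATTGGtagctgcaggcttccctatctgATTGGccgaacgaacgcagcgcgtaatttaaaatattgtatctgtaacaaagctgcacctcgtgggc
MKI67: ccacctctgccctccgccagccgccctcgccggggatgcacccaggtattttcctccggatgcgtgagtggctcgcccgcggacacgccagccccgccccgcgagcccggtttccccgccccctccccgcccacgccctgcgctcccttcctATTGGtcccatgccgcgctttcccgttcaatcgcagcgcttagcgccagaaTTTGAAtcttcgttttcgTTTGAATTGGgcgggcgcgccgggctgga
CDC25C: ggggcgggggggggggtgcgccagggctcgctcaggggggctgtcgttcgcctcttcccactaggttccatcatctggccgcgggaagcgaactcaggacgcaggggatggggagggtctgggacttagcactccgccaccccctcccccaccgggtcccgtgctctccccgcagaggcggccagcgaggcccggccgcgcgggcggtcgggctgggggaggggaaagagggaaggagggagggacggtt
CDC20 and MKI67 each hold 2 matches to TTTGAA and 2 to CCAAT, and in MKI67 the match nearest the start overlaps a CCAAT match. KIF20A holds 2 CCAAT matches, at 94 to 90 and 67 to 63 bases before the start. CDC25C, which has 4 listed starts, holds neither motif in the window of the first. TTTGAA was present in 18 of 36 member promoters against 13.6% of all 27305 promoters of the same length, CCAAT in 27 (75.0%) against 33.0%, and both in 16 (44.4%) against 4.9%. A match is a run of letters, and binding was not measured.

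Across the 42 members, the SW620 vector controls held the lowest mean level of any group within each round that has vector arrays. In replicates 3 to 6 the mean over the members was 9.15 ± 0.018 (SD, n = 4) with the empty vector and 9.16 ± 0.020 with the non-target hairpin. In the SW620 knockdowns of the same round it was 9.69 ± 0.022 for NGFR, 9.70 ± 0.018 for MAPK3, 9.77 ± 0.011 for HRAS, 9.85 ± 0.030 for MAP2K2, 9.91 ± 0.019 for MAP2K1 and 9.92 ± 0.017 for CDK5. Every one of these knockdown arrays lay above all 8 vector arrays of its line and round. In SW480 the vector controls stood at 9.67 ± 0.0054 and 9.70 ± 0.0039, and the knockdowns between 9.63 ± 0.165 (HRAS) and 9.88 ± 0.020 (MAP2K1). The gap in SW620 was wider in replicate 2 for every knockdown. In replicate 1 it was wider for HRAS, MAPK3 and NGFR but narrower for MAP2K1 and MAP2K2. In replicate 2 the SW620 vector arrays were at 6.66 and 6.73 and the knockdowns between 8.44 and 9.04, while in replicate 1 the vector arrays were at 7.25 and 7.33 and the knockdowns between 7.43 and 8.89. The value of 9.04 comes from the degraded array of MAP2K1. Bulk RNA does not tell a change in the share of cells in G2 or mitosis from a change in transcript per cell.

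**Figure D1:**
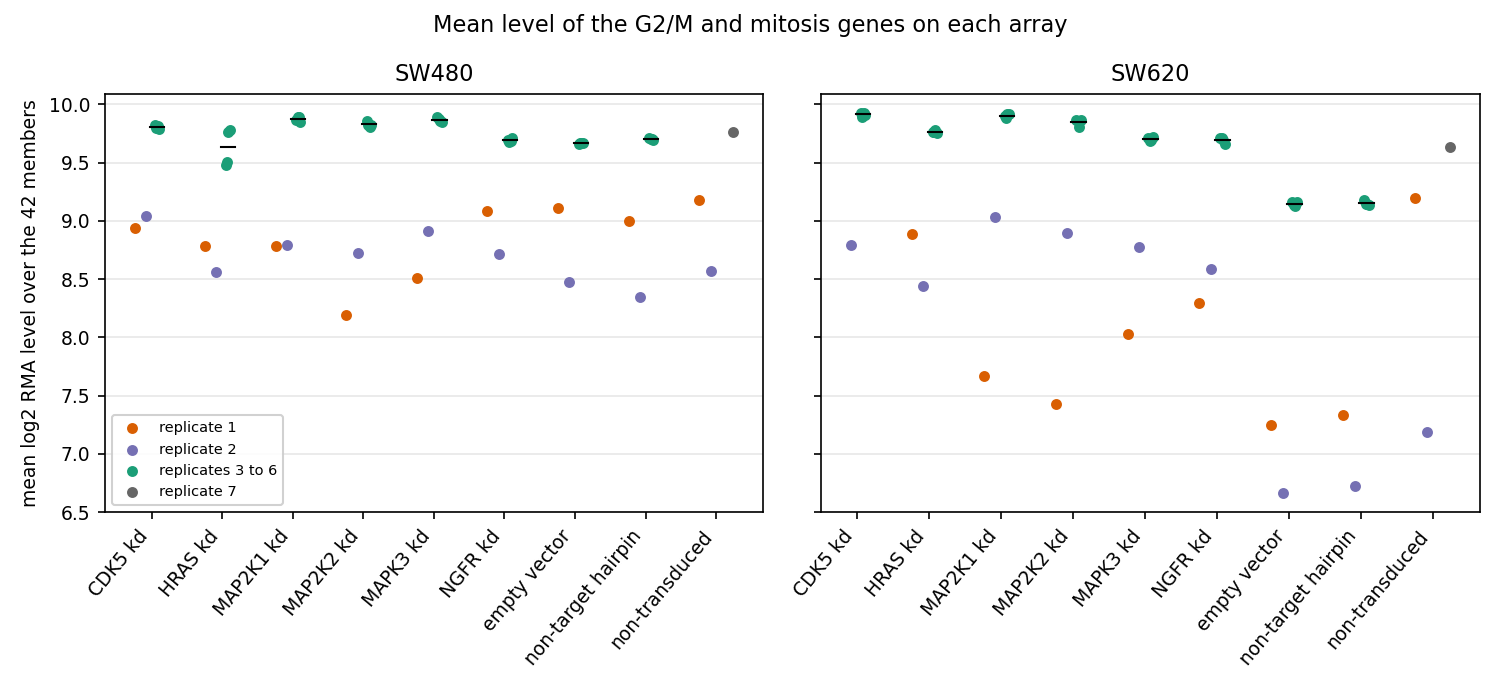
Mean log2 RMA level over the 42 members on each array (vertical axis) by treatment (kd, knockdown) in SW480 (left) and SW620 (right), coloured by round, with a black bar at the mean of replicates 3 to 6. In SW620 the empty vector and non-target arrays lie at 9.13 to 9.18 in replicates 3 to 6, below every knockdown array of that round, and near 6.7 in replicate 2.

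In SW620 nearly all members were higher in each knockdown than in the vector controls. In the CDK5 knockdown 40 of 42 were called higher, with a median change of 1.05, where 24% of all genes were called and 10.6% were called higher. For HRAS the count was 39 (median 0.97, 31% of all genes called, 14.2% higher), for MAP2K1 39 (0.98, 19.1% and 9.77%) and for MAP2K2 38 (0.86, 23.2% and 10.5%). For MAPK3 it was 35 (0.87, 29.8% and 13.9%) and for NGFR 37 (0.93, 26.3% and 12.9%). The median change over all genes lay between -0.01 and 0.01 in these 6 comparisons. A single member fell in a single SW620 knockdown, CDC25B with MAPK3, where 15.9% of all genes were called lower. The members that at least doubled numbered 24 with CDK5, 18 with HRAS, 20 with MAP2K1, 7 with MAP2K2, 17 with MAPK3 and 15 with NGFR. In all, 29 members rose in all 6 SW620 knockdowns, 9 rose in 5, 3 rose in 3 and 1 rose in none. The counts that doubled and the counts over several knockdowns are not set against the shares of all genes that did the same. By themselves they are no result about the members. The 6 comparisons share the same 12 vector arrays, so they are not independent of each other. The counts rest on how arrays are weighed. When replicates 3 to 6 were averaged to 1 array per group, the counts were 3 for CDK5, 20 for HRAS, 1 for MAP2K1, 2 for MAP2K2, 21 for MAPK3 and 15 for NGFR, while every median stayed between 1.03 and 1.36.

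**Figure D2:**
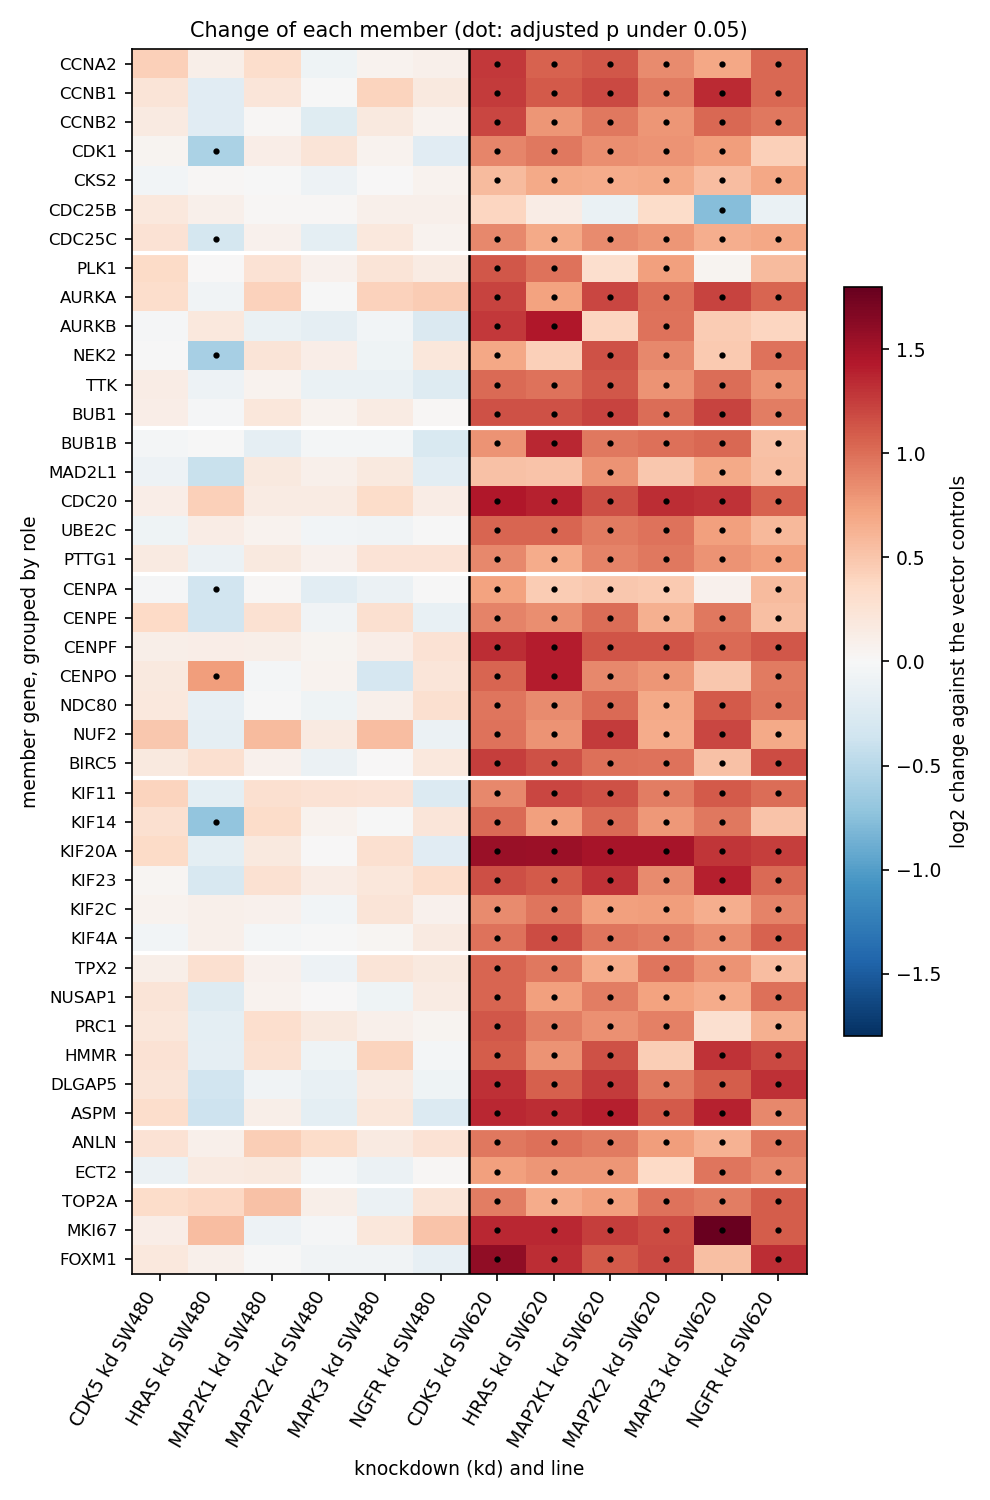
Log2 change against the vector controls (colour) for each of the 42 members (rows, grouped by role) in the 12 comparisons of knockdown (kd) and line (columns), with a dot where the adjusted p was under 0.05. The 6 SW620 columns are red for nearly all members with the exception of CDC25B, and in SW480 dots appear in the HRAS column alone, for 6 members.

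Of the 7 members that make up or control CDK1 with its cyclins, 6 rose with CDK5, HRAS, MAP2K1, MAP2K2 and MAPK3 and 5 with NGFR. CCNA2 rose by 0.70 ± 0.21 (MAPK3) to 1.28 ± 0.22 (CDK5) and CCNB1, the cyclin of mitotic entry, by 0.93 ± 0.20 (MAP2K2) to 1.34 ± 0.20 (MAPK3). CDC25C, a phosphatase that removes the inhibitory phosphates of CDK1, was at 4.16 to 5.19 on the 4 SW620 vector arrays of replicates 1 and 2, at or below the medians of those arrays (5.17 to 5.22), and at 6.85 to 7.15 on the 8 of replicates 3 to 6. In the CDK5 knockdown CDC25C was at 6.01 in replicate 2 and at 7.57, 7.71, 7.69 and 7.66 in replicates 3 to 6. All 5 of these arrays exceeded every vector array of their round, and the change was 0.87 ± 0.13 (adjusted p = 1.28e-07). With MAP2K1 CDC25C was at 5.68, 6.01, 7.73, 7.69, 7.76 and 7.74. All 6 arrays of each other knockdown lay above their controls as well, with changes of 0.66 to 0.85. In replicates 3 to 6 alone, where the controls are above the array medians, the 6 differences from the vector arrays were 0.37 to 0.74.

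CDC25B, the phosphatase thought to start CDK1 activation at the centrosome, did not follow the other members. On the SW620 vector arrays it was at 10.83, 10.19, 10.55, 10.67, 10.57 and 10.58 with the empty vector and at 10.35, 10.27, 10.32, 10.33, 10.27 and 10.26 with the non-target hairpin, in replicates 1 to 6. In the MAPK3 knockdown in SW620 it was at 10.46, 7.50, 9.95, 10.05, 10.09 and 9.96, below every control array of its round on 5 of 6 arrays. The change was -0.77 ± 0.17 (adjusted p = 0.000297). The lowest of these values comes from the degraded array, and without the degraded arrays the change was -0.30 (adjusted p = 0.0253). With replicates 3 to 6 alone it was -0.43 (adjusted p = 2.95e-10). In the other SW620 knockdowns CDC25B changed by -0.12 to 0.38 and passed the test in none. With NGFR it was below every control array of its round on 4 of 6 arrays. Its difference with NGFR was -0.10 in replicate 1, 0.89 in replicate 2 and -0.37 in replicates 3 to 6, so a lower level there is not particular to MAPK3.

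All 6 mitotic kinases rose with CDK5 and with MAP2K2, 5 with HRAS, and 4 with MAP2K1, MAPK3 and NGFR. AURKA, which matures the centrosomes, rose by 0.72 ± 0.23 (HRAS) to 1.22 ± 0.23 (MAPK3). BUB1, a checkpoint kinase at the kinetochore, rose by 0.92 ± 0.20 (NGFR) to 1.22 ± 0.20 (MAP2K1 and MAPK3). PLK1 and AURKB, the kinase of the chromosomal passenger complex, each rose with CDK5, HRAS and MAP2K2 but not with the other 3. On the 2 degraded arrays of replicate 2, MAP2K1 and MAPK3, AURKB was at 5.45 and 4.74 and PLK1 at 4.62 and 4.29, the lowest values of either gene in SW620. In replicates 3 to 6 AURKB was at 9.45 to 9.66 in those 2 knockdowns, against 8.67 to 8.85 on the vector arrays. AURKB and PLK1 were picked out here after their values were seen, and the part of RNA quality in their values was not tested. NEK2, a centrosome kinase, rose most with MAP2K1 (1.15 ± 0.19). Its rise with MAPK3 (0.48 ± 0.19, adjusted p = 0.0491) was near 0 (-0.015, adjusted p = 0.827) with replicates 3 to 6 alone.

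Among the checkpoint and APC/C factors, 4 of 5 rose with CDK5, HRAS and MAP2K2 and all 5 with MAP2K1, MAPK3 and NGFR. CDC20, the activator of the APC/C in mitosis, was at 8.23 and 8.07 on the replicate 1 vector arrays of SW620, 7.67 and 7.55 on those of replicate 2, and 9.51 to 9.57 on those of replicates 3 to 6. In the HRAS knockdown CDC20 was at 10.29, 9.63, 10.61, 10.61, 10.50 and 10.56 in replicates 1 to 6. The groups did not overlap within any round, and the change was 1.38 ± 0.17 (adjusted p = 3.52e-10). In the other 5 knockdowns CDC20 changed by 1.07 to 1.44, again with every array above every vector array of its round. BUB1B, the checkpoint protein that holds CDC20 in check, was at 7.57, 6.89, 9.47, 9.51, 9.53 and 9.58 with the empty vector and at 7.87, 7.13, 9.55, 9.57, 9.46 and 9.50 with the non-target hairpin. In the HRAS knockdown BUB1B was at 9.82, 9.13, 10.48, 10.53, 10.55 and 10.47, above all controls of each round, its largest rise (1.36 ± 0.17), and the smallest was with NGFR (0.53 ± 0.17). UBE2C, the E2 enzyme of the APC/C, was at 8.46 to 9.42 on the vector arrays of replicates 1 and 2 and at 10.42 to 10.50 on those of replicates 3 to 6. In the CDK5 knockdown UBE2C was at 10.42, 11.25, 11.31, 11.28 and 11.31, above its controls on all 5 arrays, for a change of 1.05 ± 0.14 (adjusted p = 1.83e-08). In the MAP2K1 knockdown UBE2C was at 9.64, 10.41, 11.33, 11.30, 11.29 and 11.27 (0.93 ± 0.13). MAD2L1, the checkpoint protein that binds CDC20, passed the test with MAP2K1, MAPK3 and NGFR, and its values in the other 3 were 0.48 to 0.53.

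All 7 centromere and kinetochore members rose in every SW620 knockdown except MAPK3, where 5 did. The 2 that did not pass there were CENPA, the histone H3 variant of centromeres (0.08 ± 0.11, adjusted p = 0.630), and CENPO, a protein of the inner kinetochore (0.48 ± 0.21, adjusted p = 0.0735). CENPO was at 7.85 to 7.95 in the MAPK3 knockdown in replicates 3 to 6 against 7.32 to 7.49 on the vector arrays, but its replicate 1 array (6.42) lay below both controls (6.68 and 6.56). With HRAS, CENPO was at 7.98, 8.32, 8.70, 8.69, 8.64 and 8.67, a rise of 1.41 ± 0.21 with no overlap in any round. CENPF, a large kinetochore protein, rose by 1.02 ± 0.19 (MAPK3) to 1.41 ± 0.19 (HRAS), and BIRC5 (survivin), a subunit of the passenger complex, by 0.52 ± 0.20 (MAPK3) to 1.24 ± 0.21 (CDK5).

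The 6 kinesins all rose with every knockdown except NGFR, where 5 did. KIF20A, a kinesin of the central spindle needed for cytokinesis, had the largest rise of any member with HRAS, MAP2K1 and MAP2K2. On the SW620 vector arrays KIF20A was at 5.32, 5.49, 8.52, 8.52, 8.54 and 8.55 with the empty vector and at 5.93, 5.38, 8.68, 8.60, 8.65 and 8.64 with the non-target hairpin. In the MAP2K2 knockdown KIF20A was at 7.06, 8.35, 9.76, 9.73, 9.67 and 9.73, above all controls of each round, and the change was 1.48 ± 0.19 (2.79-fold, adjusted p = 4.71e-09). Over the other 5 knockdowns its change ran from 1.24 to 1.55, again with no overlap within a round. KIF20A was the 1 member that passed the test in all 6 SW620 knockdowns also when replicates 3 to 6 were averaged to 1 array per group. KIF2C, which takes apart microtubule ends at kinetochores, had the smallest p of any member with NGFR. It was at 7.59, 7.38, 9.39, 9.34, 9.36 and 9.39 with the empty vector, at 7.76, 7.26, 9.36, 9.29, 9.31 and 9.24 with the non-target hairpin, and at 9.65, 8.94, 9.85, 9.76, 9.79 and 9.75 with NGFR. The groups did not overlap within a round, and the change was 0.90 ± 0.14 (adjusted p = 3.80e-07). The replicate 1 array of NGFR is degraded. The KIF2C difference was 1.97 there, 1.62 in replicate 2 and 0.45 in replicates 3 to 6. Over all 6 knockdowns KIF2C rose by 0.66 ± 0.14 (MAPK3) to 0.96 ± 0.14 (HRAS). KIF14, a kinesin that acts in cytokinesis, rose in 5 and was at 0.51 ± 0.22 with NGFR (adjusted p = 0.0733).

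**Figure D3:**
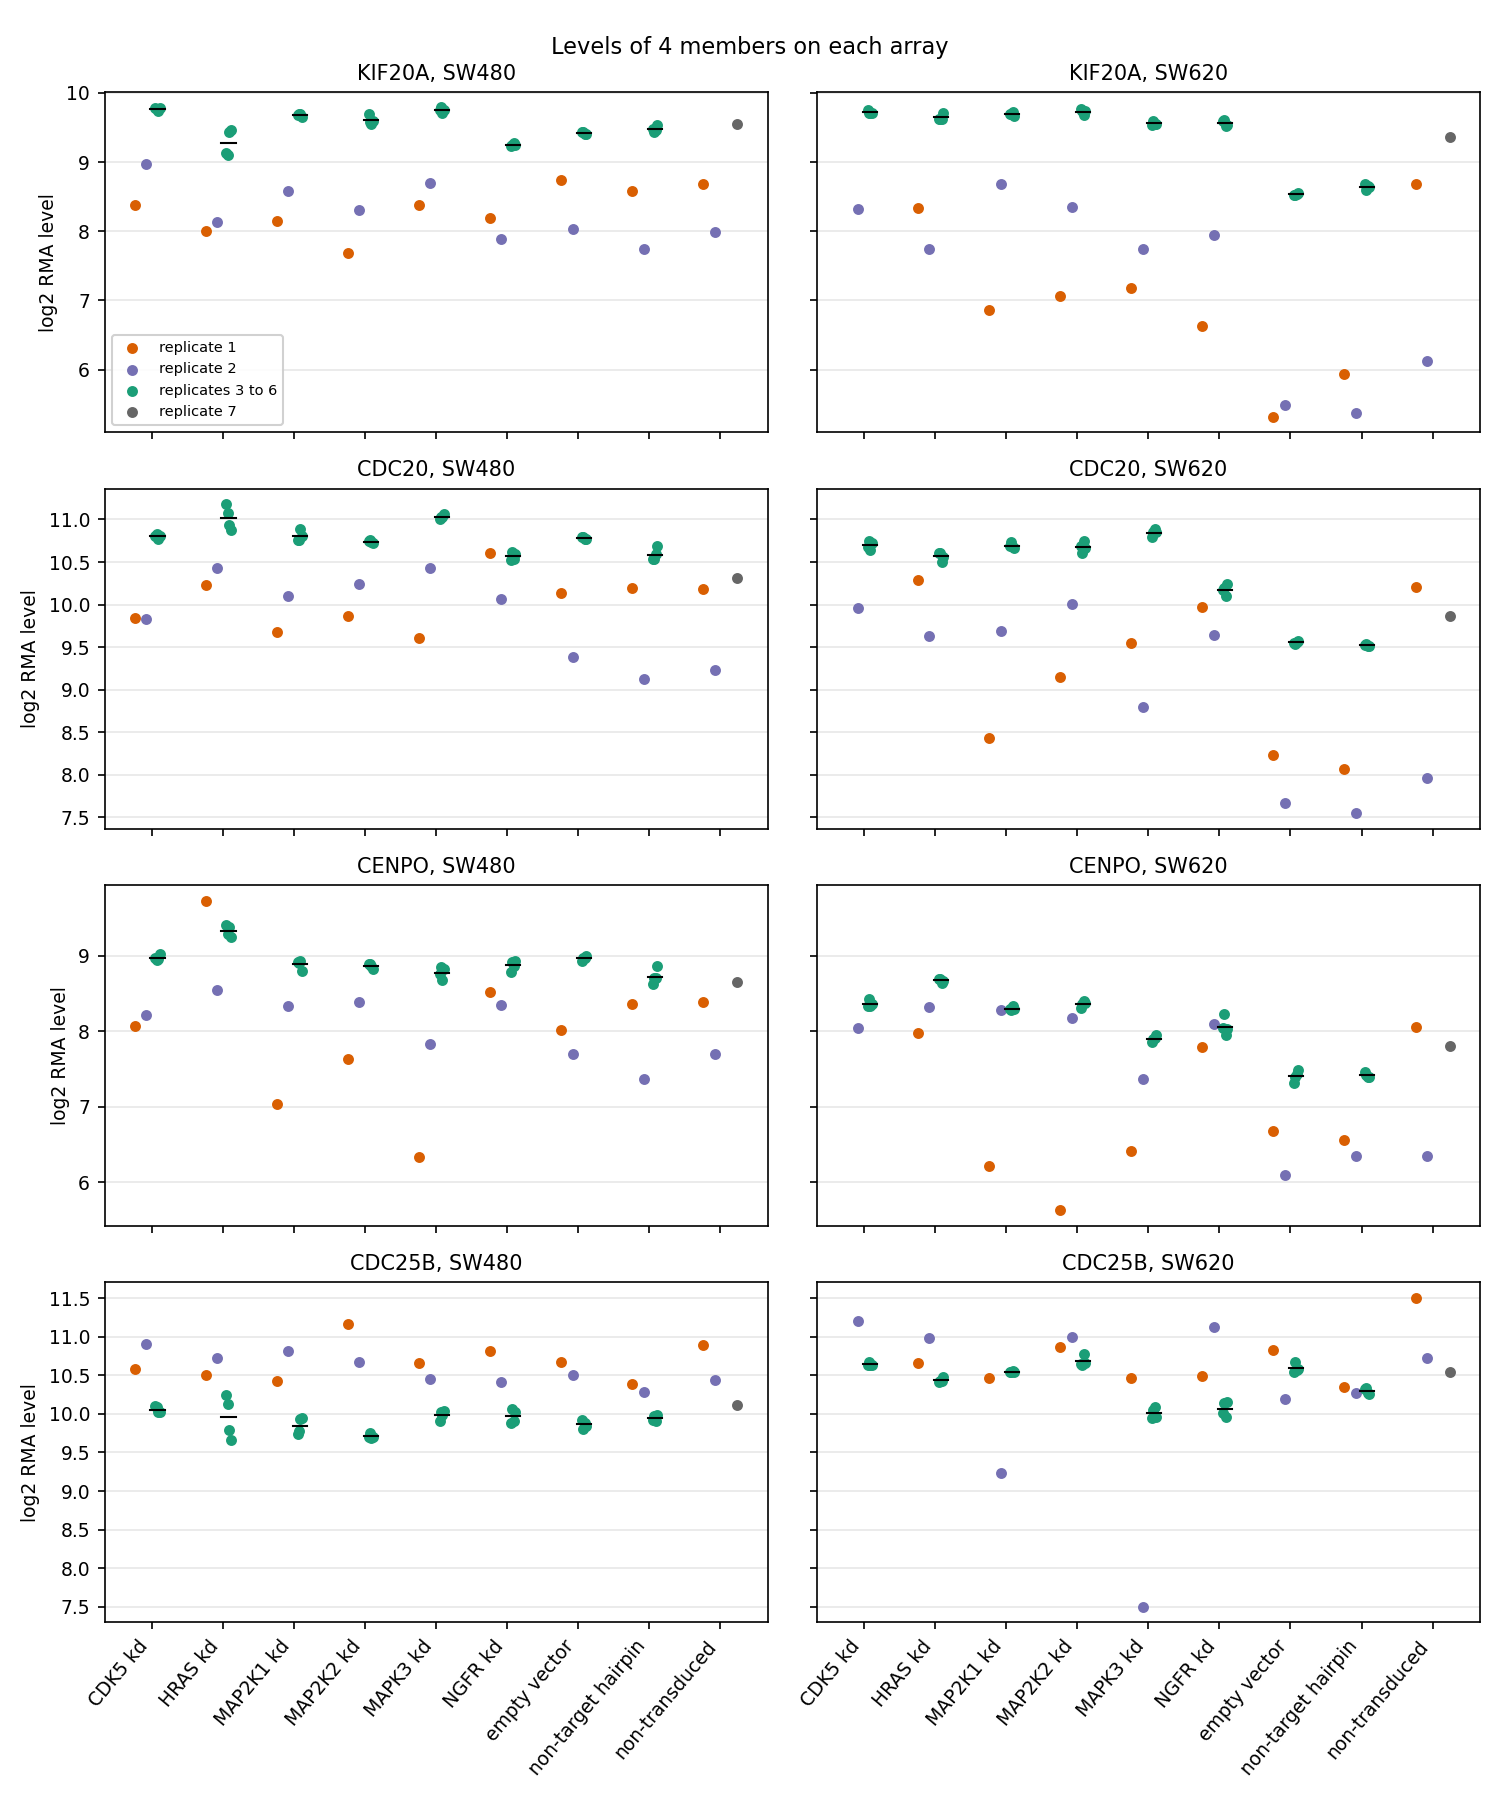
Log2 RMA level of KIF20A, CDC20, CENPO and CDC25B on each array (vertical axes) by treatment (kd, knockdown) in SW480 (left) and SW620 (right), coloured by round, with a black bar at the mean of replicates 3 to 6. KIF20A and CDC20 are lower on the SW620 vector arrays than on every SW620 knockdown array of the same round, and CDC25B falls to 7.50 on the replicate 2 array of the MAPK3 knockdown.

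All 6 spindle and midzone members rose with CDK5, HRAS, MAP2K1 and NGFR and 5 with MAP2K2 and MAPK3. PRC1, which bundles the microtubules of the midzone, was at 8.35, 7.53, 9.48, 9.52, 9.50 and 9.60 with the empty vector and at 8.33, 7.54, 9.58, 9.52, 9.43 and 9.47 with the non-target hairpin. In the CDK5 knockdown PRC1 was at 9.62, 10.38, 10.44, 10.40 and 10.40, a rise of 1.12 ± 0.14 (adjusted p = 4.31e-10), and with MAPK3 it was at 8.33, 8.66, 9.58, 9.79, 9.73 and 9.60, which overlaps the controls (0.29 ± 0.13, adjusted p = 0.0695). ASPM, a spindle pole protein, rose by 0.87 ± 0.22 (NGFR) to 1.40 ± 0.22 (MAP2K1). HMMR, a spindle assembly factor, did not pass with MAP2K2 (0.45 ± 0.26), where its replicate 1 array was at 4.73 against 6.59 and 6.75 on the controls. The cytokinesis scaffold ANLN rose in all 6 (0.62 to 0.99) and ECT2, the exchange factor that activates RHOA at the cleavage furrow, in all but MAP2K2 (0.36 ± 0.18).

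The 3 members of chromatin and transcription all rose, except FOXM1 with MAPK3. MKI67, the proliferation antigen that coats mitotic chromosomes, was at 6.53, 5.42, 8.93, 8.92, 8.98 and 8.93 with the empty vector and at 6.91, 5.91, 8.76, 8.80, 8.85 and 8.74 with the non-target hairpin. In the MAPK3 knockdown MKI67 was at 7.90, 9.80, 10.16, 10.20, 10.25 and 10.17. This was the largest change of any member (1.77 ± 0.25, 3.42-fold, adjusted p = 2.28e-08), with every array above its controls. The replicate 2 array (9.80) is a degraded one. The MKI67 difference from the vector arrays was 4.13 there, against 1.18 in replicate 1 and 1.33 in replicates 3 to 6. The part of RNA quality in this rise was not tested. FOXM1, the transcription factor of G2 and M genes, rose most with CDK5 (1.60 ± 0.28), and by 1.33 ± 0.26 with both HRAS and NGFR. With MAPK3 it was at 0.54 ± 0.26 (adjusted p = 0.115), and its degraded replicate 2 array read 6.19. TOP2A, the topoisomerase that untangles sister chromatids, varied more between arrays of a group than most members. On the SW620 vector arrays of replicates 3 to 6 its SD was 0.417, against 0.0208 for CDC20, and its changes ran from 0.66 ± 0.24 (HRAS) to 1.08 ± 0.24 (NGFR). The TOP2A difference in replicates 1, 2 and 3 to 6 was 1.74, 1.93 and 0.08 with HRAS. With MAP2K1 it was 0.74, 2.96 (degraded array) and 0.18. In both, 3 of 6 arrays lay above every vector array of their round. The other knockdowns gave 0.47 to 0.77 in replicates 3 to 6.

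Of the 40 probe sets of members that were not used above, 34 to 36 had the same sign as the one used in each SW620 knockdown. In a fit of all probe sets, 20 (MAP2K1) to 25 (CDK5 and HRAS) of the 40 passed the test there. All of these were higher, except that 24 of 25 were with HRAS and 21 of 23 with MAPK3. The 4 MKI67 probe sets gave 1.21 to 1.36 with CDK5. For CDC25C, 2 probe sets rose with CDK5 and the dimmest was at -0.057. In SW480, 20 to 30 of the 40 had the same sign as the one used. There, 10 passed with HRAS (4 of them higher), 4 with NGFR (1 higher), 1 with MAP2K1 (higher) and none with CDK5, MAP2K2 or MAPK3. These counts are not set against the shares of all probe sets called.

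In SW480 no member, read from its brightest probe set, passed the test in 5 of the 6 knockdowns by limma: CDK5 (median change 0.18, 8.06% of all genes called), MAP2K1 (0.12, 6.54%), MAP2K2 (-0.01, 5.17%), MAPK3 (0.13, 10.7%) and NGFR (0.07, 24%). At an unadjusted p under 0.05 there were 4, 4, 0, 2 and 1 members. Levels and folds for the same member show the contrast. KIF20A was at 9.40 to 9.53 on the SW480 vector arrays of replicates 3 to 6 and at 9.65 to 9.69 in the MAP2K1 knockdown (0.18 ± 0.19), and BUB1B at 9.64 to 9.80 and 9.59 to 9.66 (-0.16 ± 0.17). With replicates 3 to 6 alone, where the arrays of a group lie close together, 24, 22, 21, 31 and 18 members passed in these 5 knockdowns (22, 22, 19, 30 and 7 of them higher), with medians of 0.13, 0.16, 0.15, 0.16 and 0.03, where 33.4% to 48.7% of all genes were called.

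In the HRAS knockdown in SW480 6 members passed the test, 1 higher and 5 lower (median -0.08), where 26.2% of all genes were called, 9.97% higher and 16.2% lower. These counts are smaller shares of the 42 members than the shares of all genes. CENPO was at 9.73, 8.55, 9.41, 9.30, 9.39 and 9.24, above its controls on 6 of 6 arrays, a rise of 0.75 ± 0.21 (adjusted p = 0.00419), and its second probe set also rose (0.63 ± 0.095). KIF14 fell by 0.71 ± 0.22 on the log2 scale (adjusted p = 0.0112), NEK2 by 0.60 ± 0.19 (0.0133), CDK1 by 0.56 ± 0.20 (0.0262), CENPA by 0.34 ± 0.11 (0.0122) and CDC25C by 0.32 ± 0.12 (0.0368). The 4 arrays of replicates 3 to 6 were not alike. KIF14 was at 6.51 and 6.98 in replicates 3 and 4 but at 8.16 and 8.29 in replicates 5 and 6, and CENPA at 7.16 and 7.24 against 7.89 and 7.96, where the vector arrays lay at 7.94 to 8.56 for KIF14 and at 7.86 to 8.11 for CENPA. The mean over the 42 members was 9.48 and 9.50 in replicates 3 and 4 and 9.76 and 9.79 in replicates 5 and 6. On the first pair GAPDH from the 3 prime end exceeded that from the 5 prime end by 1.39 and 1.47, the highest differences in replicates 3 to 7, and the part of RNA quality in these falls was not tested. All 5 falls missed the threshold without replicate 3 (adjusted p between 0.0698 and 0.210) and without replicate 4 (between 0.0523 and 0.217), and CENPO kept its call in both.

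Tested as a difference between lines (SW620 minus SW480), the CDK5 change was larger in SW620 for 28 members (median difference 0.85, 15.6% of all genes called, 6.5% with a larger change), the HRAS change for 35 (0.98, 18.9% and 10.2%), MAP2K1 for 27 (0.86, 11.5% and 5.64%), MAP2K2 for 25 (0.88, 10.4% and 4.53%) and NGFR for 26 (0.78, 23.7% and 10.5%). The MAPK3 change was larger for 21 and smaller for CDC25B (0.79, 17% of all genes called, 8.17% larger and 8.83% smaller). The largest single difference was that of KIF20A with HRAS (1.72), which rose by 1.54 ± 0.19 in SW620 and was at -0.18 ± 0.19 in SW480. These tests lost most of their calls when replicates 3 to 6 were averaged in pairs, to 2, 15, 0, 4, 3 and 4 members for CDK5, HRAS, MAP2K1, MAP2K2, MAPK3 and NGFR, and all of them with 1 array per group. Without the SW480 arrays over 0.1 of the way to SW620 the count fell to 1 with MAP2K1, 15 with MAP2K2 and 0 with MAPK3, which then keeps 1 SW480 array.

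The lines differed in their vector controls. There, 37 members were lower in SW620 than in SW480 and 1 was higher (median -1.02, 48.6% of all genes called, 24.7% lower and 23.9% higher). FOXM1 (-1.73 ± 0.22), MKI67 (-1.51 ± 0.20) and KIF20A (-1.49 ± 0.16) differed most, CDC25B was the higher one (0.34 ± 0.14, adjusted p = 0.0377), and CDK1, KIF11, NEK2 and NUF2 did not pass. By round the median difference was -1.82 and -1.74 in replicate 1, -1.79 and -1.67 in replicate 2 and -0.56 for both vectors in replicates 3 to 6, where 34 and 37 members were lower in SW620. In the knockdowns of replicates 3 to 6 the median difference between lines was -0.19 to 0.13. The non-transduced cells gave 0.02 in replicate 1, -1.47 in replicate 2 and -0.13 in replicate 7.

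Between the non-target hairpin and the empty vector, no member passed the test by limma in either line (0.101% of all genes called in SW480, 0.00506% in SW620), and none had an unadjusted p under 0.05. Vector controls against non-transduced cells gave no call in SW480 (0% of all genes called, 0 members at an unadjusted p under 0.05). In SW620, 16 members were lower in the vector controls (median -0.73, 5.88% of all genes called, 1.54% lower), and this rests on single rounds. Without replicate 1, 2 members were higher and none lower, and without replicate 2 all 42 were lower. These counts are not set against the shares of all genes called in the same fits.

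The SW620 rounds also disagree when each array is set against the non-transduced array of its own round, 1 array each. In replicate 1 the mean over the members was 9.20 in non-transduced SW620 cells, and every knockdown lay below it, with median differences of -0.34 (HRAS), -0.93 (NGFR), -1.14 (MAPK3), -1.53 (MAP2K1) and -1.77 (MAP2K2). The vector arrays lay lower still, at -1.88 and -1.86. In replicate 2 the non-transduced mean was 7.18 and the knockdowns lay above it, by 1.29 (HRAS) to 2.16 (MAP2K1), with the vector arrays at -0.53 and -0.46. The NGFR array of replicate 1 and the MAP2K1 and MAPK3 arrays of replicate 2 are the degraded ones. For MKI67 the non-transduced SW620 arrays read 9.71 in replicate 1, 6.59 in replicate 2 and 9.17 in replicate 7. By these medians the knockdowns lay above the vector controls in both rounds, while their order against non-transduced cells turned between them. Replicates 3 to 6 have no non-transduced array.

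**Figure D4:**
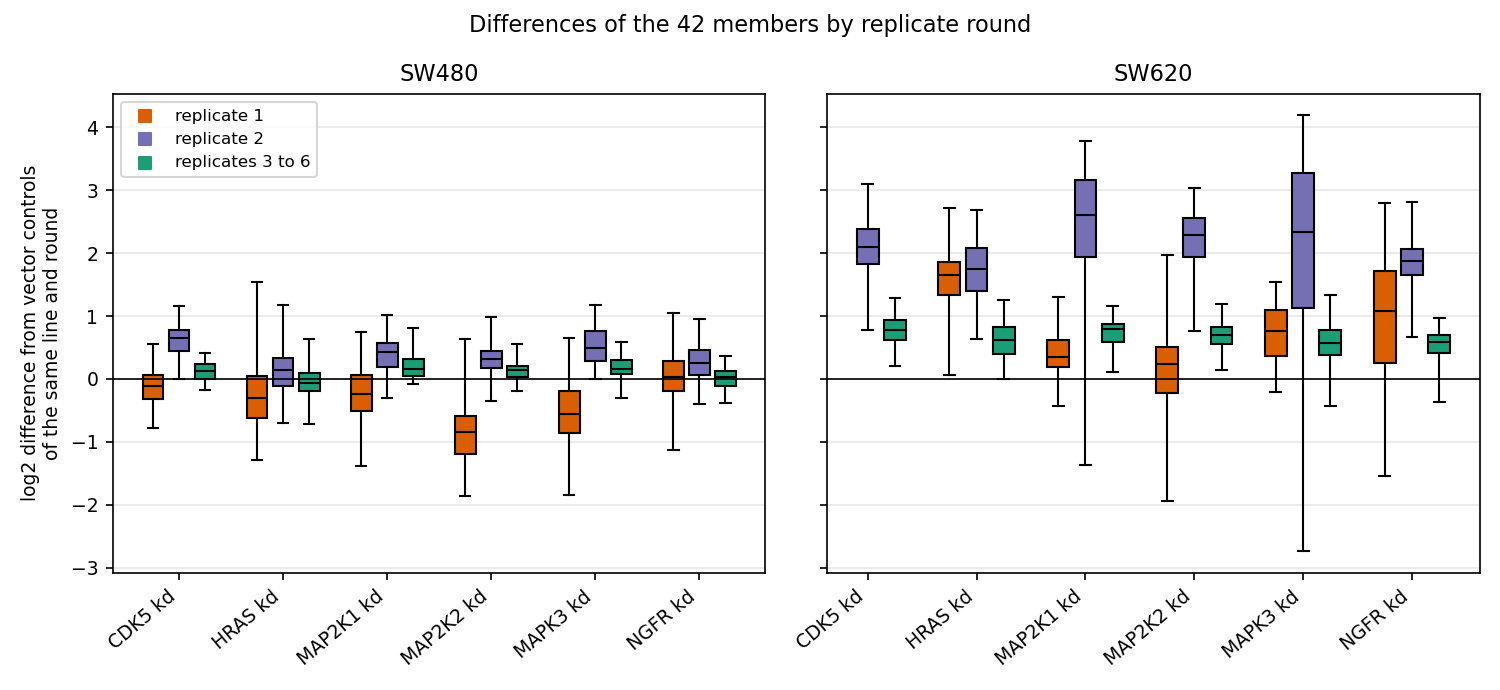
Log2 difference of each of the 42 members from the vector controls of the same line and round (vertical axis) for each knockdown (kd) in SW480 (left) and SW620 (right); boxes span the quartiles, the black line is the median and whiskers reach the lowest and highest member. In SW620 the medians lie above 0 in every round, between 1.74 and 2.605 in replicate 2 and between 0.57 and 0.79 in replicates 3 to 6, and in SW480 they lie between -0.84 and 0.65. The highest SW620 median of replicate 2 is that of the degraded MAP2K1 array.

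Set against the vector arrays of the same round, the median SW620 change was 2.09 in replicate 2 and 0.77 in replicates 3 to 6 with CDK5, which has no replicate 1. It was 1.65, 1.74 and 0.62 with HRAS in replicates 1, 2 and 3 to 6, 0.34, 2.605 and 0.79 with MAP2K1, 0.23, 2.29 and 0.69 with MAP2K2, 0.76, 2.34 and 0.57 with MAPK3, and 1.08, 1.88 and 0.58 with NGFR. The replicate 2 values of MAP2K1 and MAPK3 and the replicate 1 value of NGFR come from the degraded arrays. The members higher in every round with arrays numbered 42 with CDK5 (33.3% of all genes), 41 with HRAS (21.9%), 35 with MAP2K1 (12.3%), 25 with MAP2K2 (14%), 33 with MAPK3 (15%) and 36 with NGFR (18.5%). Those with every knockdown array above every vector array of its round numbered 40 (14.1% of all genes), 39 (11.4%), 32 (3.15%), 20 (3.84%), 31 (4.93%) and 34 (5.85%) in the same order. In SW480 these last counts were 4 with CDK5 (4.32% of all genes), 4 with HRAS (2.62%), 4 with MAP2K1 (1.82%), 0 with MAP2K2 (1.96%), 1 with MAPK3 (1.94%) and 6 with NGFR (9.53%).

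Between knockdowns of SW620, 15 pairs were compared directly in the same fit, without the vector controls as the reference. The round terms and the spread still rest on all arrays, the vector arrays among them. For the round terms this bears most on the pairs with CDK5, which has no replicate 1. Most pairs differed in few members. The MAPK3 knockdown was the lower one for 6 members against CDK5 (11% of all genes called), 7 against HRAS (17.3%), 4 against MAP2K1 (9.05%), 3 of 5 against MAP2K2 (13.7%), and 3 against NGFR (18%). CDC25B and CENPA were among them in all 5 pairs, and CDC25B differed by 1.15 against CDK5 (adjusted p = 2.93e-05), with the degraded replicate 2 array of MAPK3 included. ECT2 and HMMR were higher with MAPK3 than with MAP2K2. HRAS exceeded NGFR for AURKB, BUB1B and UBE2C (14.2%), CDK5 exceeded NGFR for PRC1 (7.9%), and HRAS lay above MAP2K1 for AURKB and below it for NEK2 (9.85%). The other 7 pairs had no member past the threshold by limma and 2 to 6 members at an unadjusted p under 0.05, where 1.06% to 10.7% of all genes were called. As shares of the members, these counts exceeded the share of all genes called only for MAPK3 against CDK5 and, barely, against MAP2K1. In the other SW620 pairs they were below it. A missed threshold does not show equal levels. In SW480 the HRAS knockdown differed from CDK5 in 8 members (26.1% of all genes called), from MAP2K1 in 9 (24.9%), from MAP2K2 in 4 (19.7%), from MAPK3 in 5 (18.2%) and from NGFR in 4 (36.3%). The 1 call in the other 10 pairs was CDC25C between CDK5 and MAP2K2 (0.44, adjusted p = 0.0486, 4.36%). Each of these SW480 counts is a smaller share of the members than the share of all genes called in its pair.

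Among other genes of the same phase, taken from a list drawn up with earlier results known, 55 of 56 were measured. Of these, 48 rose with CDK5 in SW620, 49 with HRAS, 49 with MAP2K1, 48 with MAP2K2, 42 with MAPK3 and 38 with NGFR, with medians of 0.60 to 0.85 and no fall, where 9.77% to 14.2% of all genes were called higher. In SW480, 0 to 5 rose and 0 to 7 fell, where 2.07% to 13.1% of all genes were called higher and 3.09% to 16.2% lower. The highest of these counts, 5 of 55 higher with NGFR and 7 of 55 lower with HRAS, are below the shares of all genes there (13.1% and 16.2%). LMNB1, a lamin of the nuclear envelope, passed in both lines with CDK5 (0.81 ± 0.19 in SW480, 1.23 ± 0.20 in SW620), HRAS (0.75 ± 0.19 and 1.08 ± 0.19), MAP2K1 and MAPK3. KIFC1, a kinesin that gathers spindle poles, passed in all 6 SW620 knockdowns (0.46 to 0.83) and in 4 of SW480 (0.26 to 0.37).

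Of 14 measured core subunits of the APC/C, which are present through the cycle, 2 to 4 rose and 1 or 2 fell in each SW620 knockdown, where 9.77% to 14.2% of all genes were called higher and 9.28% to 16.8% lower. The counts higher are small but above those shares in each knockdown, and the counts lower are below them. CDC23 rose by 0.75 ± 0.11 with HRAS in SW620 and by 0.64 ± 0.11 in SW480, while ANAPC16 fell in all 6 SW620 knockdowns, by 0.43 to 0.69 on the log2 scale. Of 12 MuvB and DREAM genes, 1 (NGFR) to 6 (MAPK3) rose and 0 (MAP2K1) to 4 (NGFR) fell in SW620, against the same shares of all genes. The counts higher are above that background in every knockdown but NGFR. Of the counts lower, those with HRAS and MAP2K1 are at or below it, and that with NGFR exceeds it most. RBL1 (p107), a pocket protein whose own gene is cell cycle regulated, rose in 5 of 6 SW620 knockdowns (0.44 to 0.76) and with CDK5 in SW480 (0.54 ± 0.15), and fell with NGFR in SW480 (-0.41 ± 0.15, adjusted p = 0.0288). RBL2 (p130), the pocket protein of quiescent cells, fell with HRAS in both lines (-1.25 ± 0.16 in SW480, -1.45 ± 0.16 in SW620) and with 4 other knockdowns in SW620, and rose with NGFR in SW480 (0.50 ± 0.16, adjusted p = 0.0143). Of the 9 cohesin genes, whose products hold sister chromatids together, 0 (MAP2K2) to 6 (HRAS) rose in SW620 and 1 fell, with NGFR, against the same shares of all genes. The counts higher are above those shares in every knockdown but MAP2K2, and the 1 fall is near the background. SMC1A rose by 0.86 ± 0.16 with HRAS and passed in 5 of 6, and PDS5B rose by 0.53 ± 0.12 with NGFR and by 0.35 ± 0.12 with MAP2K1 in SW620 and by 0.33 ± 0.12 with NGFR in SW480, and fell with HRAS in SW480 (-0.43 ± 0.12, adjusted p = 0.00318).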

How the data were processed

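Total RNA was measured on Affymetrix arrays, 1 sample per array, in 18 groups. The deposited values are log2 levels per probe set, made by the authors with RMA per the submitters' processing notes. Its version, and whether all arrays were normalised together, are not given in the sources used here. The number of arrays limits the precision. The distributions of arrays differed between rounds, so no further scaling was applied and round was a term of the fit.

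Of 54675 probe sets, 41097 name 1 gene by the platform annotation, 1801 name several and 11777 none. The last 2 kinds were left out. Symbols were brought up to date by gene identifier where it matched (41043). Each of 19775 genes was read from its brightest probe set over all arrays, with no filter on dim genes. ANAPC1, CIT and CD68 of the lists were not measured.

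A model with a term for each group and for round within line was fitted to all arrays by limma 3.58.1 under R 4.3.3, and moderated by eBayes (trend, robust). P-values are two-sided and adjusted by Benjamini-Hochberg over the 19775 genes of a comparison, and 0.05 was the threshold. The fit was tested on simulated data. The members and lists were chosen with earlier results of these data known.

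The 3 members with the smallest p in each knockdown and line, and the largest call against the majority, are each given by array for at least 1 knockdown. Of each further list the 2 genes called most often are named, and the promoters are those of the 4 members called most often among those with an entry in the RefSeq promoters, with ties settled by the mean size of change. Single values of AURKB, PLK1, HMMR and FOXM1 and the SD of TOP2A are given beyond this rule, chosen after they were seen.

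CDK5 in SW620 has no replicate 1. Other knockdowns named in the series are not analysed here. Titles were followed where the labels disagree on the number of the last non-transduced replicate, and the misspelt source name of 1 NGFR array was kept in SW620. Alternatives changed the block, the control, the probe set, the filter, the normalisation and the arrays used. Files were read with the R package data.table (version 1.17.8) and figures drawn with Python 3.11.15 and matplotlib 3.10.9.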

Additional observations from a re-analysis of the deposited data

Results flagged for a closer look

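Of 32 sets of 4 to 6 arrays checked for a mean over the 42 members that stands apart, 3 were marked. Chance marks about 1 in 20 sets of like arrays. The sets were replicates 3 to 6 of a group and all arrays of a group. The latter mix rounds and hold the same arrays again, so that rate does not apply to the 32 as a whole. Among the 5 arrays of the CDK5 knockdown in SW620, replicate 2 lay far below the others (8.794). It is the 1 array of that group from another round, and in the SW620 groups replicate 2 lay below replicates 3 to 6 throughout, so this set is no test against the chance rate. Among replicates 3 to 6 in SW620, replicate 3 was the high array of the non-target hairpin (9.184) and replicate 5 the low array of the MAP2K2 knockdown (9.804).

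The change of members differed between the lines in every knockdown by the test of the difference itself (limma, adjusted p under 0.05): 28 members with CDK5, 35 with HRAS, 27 with MAP2K1, 25 with MAP2K2, 22 with MAPK3 and 26 with NGFR. The SW620 vector arrays, shared by these 6 tests, held the lowest mean over the members of the SW620 groups in each round that has vector arrays, and the part of their level in these differences was not tested.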

How the results depend on the processing

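The counts of called members depend most on how rounds and arrays are weighed. Most counts under alternatives, here and above, are given without the share of all genes called, which also changes with the setting. They show how the calls shift and are by themselves no result about the members. In SW620 the main counts of 40, 39, 39, 38, 36 and 37 (CDK5, HRAS, MAP2K1, MAP2K2, MAPK3, NGFR, the order used throughout) became 19, 16, 4, 6, 6 and 5 with no term for round, and 3, 20, 1, 2, 21 and 15 with replicates 3 to 6 averaged to 1 array per group, an alternative chosen after the data were seen. Averaged in pairs, only MAP2K2 moved by over 1.5 times, to 22. The SW480 count of HRAS (6) became 0 under each of these 3 alternatives, 3 against the non-target hairpin alone, and 10 without the 3 SW480 arrays of replicate 1 and the degraded arrays, also chosen after seeing the data. With replicates 3 to 6 alone the SW480 counts were 24, 30, 22, 21, 31 and 18, and the vectors differed from each other in 9 members in SW480 and 3 in SW620. The mean of all probe sets gave 1 SW480 call with CDK5 and 1 with NGFR. Without the degraded arrays MAP2K1, MAPK3 and NGFR had 1 SW480 call each, and without those and the 3 SW480 arrays CDK5 had 2, MAPK3 5 and NGFR 1.

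The counts for the difference between lines (28, 35, 27, 25, 22 and 26) became 1, 0, 0, 0, 0 and 1 with no term for round, 2, 15, 0, 4, 3 and 4 with arrays averaged in pairs, and 0 for all 6 with 1 array per group. Against the non-target hairpin alone CDK5 gave 12, MAP2K1 9, MAP2K2 15 and MAPK3 11, and against the empty vector alone MAP2K1 gave 17. Without the SW480 arrays over 0.1 of the way to SW620, MAP2K1 gave 1, MAP2K2 15 and MAPK3 0. This leaves MAPK3 with 1 SW480 array, which is assumed to vary like the other groups. Without the 3 SW480 arrays of replicate 1 MAP2K2 gave 16, and without those and the degraded arrays MAP2K1 gave 17 and MAPK3 13. The count of members lower in SW620 vector controls than in non-transduced cells (16) became 0 with no term for round, 1 in pairs, 0 with 1 array per group, 30 without degraded arrays and 33 without those and the 3 SW480 arrays.

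Leaving out each replicate number in turn gave 0 to 3 SW480 calls for CDK5, 1 to 10 for HRAS, 0 to 3 for MAP2K1, 0 to 1 for MAP2K2, 0 to 8 for MAPK3 and 0 to 1 for NGFR. For the difference between lines it gave 14 to 34, 23 to 38, 10 to 36, 15 to 33, 14 to 30 and 20 to 32. For vector against non-transduced SW620 cells it gave 2 to 42. The HRAS call in SW480 turned from mostly lower to 1 higher without replicate 3 and without replicate 4, and the comparison with non-transduced SW620 cells turned to 2 higher without replicate 1. NEK2 with MAPK3 in SW620 turned to -0.015 with replicates 3 to 6 alone. The cause of these shifts was not tested.

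Of 235 single calls of members, 233 kept their direction and threshold with a replicate block and 2 missed the threshold. In the replicate block the counts were 40, 39, 39, 38, 35 and 36 in SW620 and 0, 6, 0, 0, 0 and 0 in SW480. All 235 kept theirs when the dimmest 40% of genes were left out, 224 against the empty vector alone, 221 against the non-target hairpin alone, 228 without degraded arrays and 184 with arrays averaged in pairs, and 56 with no term for round. Apart from the NEK2 call, each of the others kept its direction under every alternative run. Same-numbered arrays of replicates 3 to 6 did not deviate together: the mean correlation of their deviations from the group means was -0.0251 over 112 pairs of arrays in SW480, of which 20 were over 0.1, and -0.00177 over 112 in SW620, of which 10 were.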
